A study of Mus musculus with 2 samples.

Results

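The 10 genes described here encode glycoproteins of the extracellular matrix: fibronectin (Fn1), the matricellular proteins Sparc, Postn, Tnc, Tnxb, Thbs1 and Thbs2, and the elastic fibre components Fbln1, Fbn1 and Eln. They were chosen by gene symbol from the 43346 genes of the gene tables, and all 10 were found and had a mean level of at least 1 TPM. The data come from 2 libraries of mammary gland of 8-week-old mice of the inbred strain C57BL/6J. GEO's labels put both in 1 group, as its biological replicates 1 and 2. The tissue of each library was pooled from male and female littermates, and both carry the same donor label, so animals and cell types were mixed before sequencing. RNA with poly(A) tails, longer than 200 nt and depleted of rRNA, was read in stranded pairs of 76 nt with spike-in RNAs added. The labels give no contrast, so no p-value is given. The replicates are compared only to show how far a value is repeated, and the spread between them may be technical.

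Structural proteins such as elastin and the fibrillins bear load in the matrix, whereas matricellular proteins bind cells, growth factors and collagens and mainly alter how cells respond to the matrix. Elastic fibres form when tropoelastin, the product of Eln, is deposited on microfibrils of fibrillin and crosslinked by lysyl oxidases, with fibulins as adaptors. Fibronectin is assembled by cells into fibrils through integrins. In the mammary gland this matrix lies in the stroma around ducts, fat and vessels.

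Fn1, Postn and Sparc carry the alternative coding exons on which the transcript results below turn, and their sequences are shown here because the deposited transcripts differ in them. They were read 5′ to 3′ along the gene from the GENCODE M21 transcripts on mm10. In Fn1, on the minus strand of chromosome 1, the extra domain exons EIIIB (exon 25 of 46 in transcript Fn1-201, 273 nt, chr1:71613763-71614035) and EIIIA (exon 33, 270 nt, chr1:71603660-71603929) each encode a whole fibronectin type III repeat, and both are typical of cellular rather than plasma fibronectin. Another Fn1 site, the variable region, is shown from its start (chr1:71597648-71597747), and its first 75 bases, in capitals, are held, among protein-coding transcripts, only by those with the longest form of that exon. They encode the CS1 segment, a ligand of the integrin that contains the Itga4 subunit.
Fn1 EIIIB: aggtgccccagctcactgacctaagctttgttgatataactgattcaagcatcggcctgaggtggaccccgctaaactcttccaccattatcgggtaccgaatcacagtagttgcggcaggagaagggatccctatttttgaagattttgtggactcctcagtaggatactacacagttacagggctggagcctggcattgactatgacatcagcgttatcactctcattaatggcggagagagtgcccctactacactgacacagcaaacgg
Fn1 EIIIA: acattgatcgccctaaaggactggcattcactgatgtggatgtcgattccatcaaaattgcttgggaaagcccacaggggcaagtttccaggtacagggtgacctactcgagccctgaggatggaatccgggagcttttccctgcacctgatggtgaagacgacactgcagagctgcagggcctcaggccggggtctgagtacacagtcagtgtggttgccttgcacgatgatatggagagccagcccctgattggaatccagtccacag
Fn1 variable region, first 100 bases: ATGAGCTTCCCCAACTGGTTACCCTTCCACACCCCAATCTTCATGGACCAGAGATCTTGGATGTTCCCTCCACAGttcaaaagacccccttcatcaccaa
Postn exon 17 of transcript Postn-202: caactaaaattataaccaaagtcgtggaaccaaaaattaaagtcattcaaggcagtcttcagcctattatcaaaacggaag
Postn exon 21 of transcript Postn-202: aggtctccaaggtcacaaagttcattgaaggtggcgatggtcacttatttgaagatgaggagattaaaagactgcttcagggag
Sparc exon 3 of transcript Sparc-201: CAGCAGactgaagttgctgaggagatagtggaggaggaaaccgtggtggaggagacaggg
The Postn exons (81 nt, chr3:54380412-54380492, and 84 nt, chr3:54385671-54385754, plus strand) lie near the 3′ end of the coding sequence, in the part that encodes the alternatively spliced carboxy-terminal region of periostin. The capitals in the Sparc exon (60 nt, chr11:55407220-55407279, minus strand) mark the 6 bases by which its 3 annotated forms differ: Sparc-201 holds all 6, Sparc-202 starts 3 bases later and Sparc-206 starts 6 bases later.

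Replicate 1 held 56323489 expected counts over all genes and replicate 2 held 42400470. Mammary markers were present, with the 3 luminal epithelial markers at 338 and 593 TPM in sum, the 3 myoepithelial markers at 156 and 144 TPM and the 4 adipocyte markers at 3183 and 3732 TPM in replicates 1 and 2. By the count rule defined further below, 18.2% of the 14510 genes with a mean of at least 1 TPM were beyond 2-fold between replicates. The libraries stood apart in 6 skeletal muscle markers, which summed to 25943 TPM in replicate 1 and 11.0 TPM in replicate 2, with all 6 beyond 2-fold and none at 0. The 3 keratinocyte markers summed to 93.7 TPM in replicate 1 and 4.43 TPM in replicate 2, and the 2 brown adipocyte markers to 899 and 160 TPM, again all beyond 2-fold. Leukocyte markers ran the other way, at 302 TPM in replicate 1 and 616 TPM in replicate 2, with 1 of 3 beyond 2-fold. So did all 3 luminal epithelial markers, with 0 beyond 2-fold. Their median log2 count ratio was -0.79, against -0.68 for the leukocyte markers. The adipocyte sums hide opposite directions: 2 of the 4 markers were higher and 2 lower in replicate 1 by counts, with 1 beyond 2-fold. The sums for fibroblasts, smooth muscle and pericytes, endothelium and Schwann cells differed less. The 6 fibroblast markers summed to 2169 and 1666 TPM, with 2 beyond 2-fold. The 6 smooth muscle and pericyte markers summed to 752 and 654 TPM, with 1 beyond 2-fold. The 3 endothelial markers summed to 178 and 164 TPM, with 0 beyond 2-fold, and the 3 Schwann cell markers to 246 and 175 TPM, with 1. The 4 tendon and cartilage markers summed to 2.79 and 7.51 TPM, and the 1 with a mean of at least 1 TPM was beyond 2-fold. In the last list Acan had 0 fragments in replicate 1 and 3 in replicate 2, at or under the floor of 3 fragments. The part of these cell types in the differences below was not tested, and in pooled tissue fewer cells of a type and less RNA per cell cannot be told apart.

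Together the 10 genes took 3762 TPM in replicate 1 and 4352 TPM in replicate 2 (4057 ± 417, SD, n = 2), which is 0.376% and 0.435% of all TPM. By expected counts they took 0.541% of the fragments in replicate 1 and 0.545% in replicate 2. Sparc alone supplied 78.0% of their summed TPM in replicate 1 and 74.1% in replicate 2. The levels spanned a wide range, from Sparc at rank 32 of the 14510 genes with a mean of at least 1 TPM to Thbs1, which lay above 26.9% of them. TPM is a level per transcript length, so it can be compared between genes as far as reads were assigned to the right transcripts. For Sparc and Fn1 much of the TPM rests on assignment to short transcripts, described below. By expected counts, which are not per length, Sparc had 110361 and 73751 in replicates 1 and 2 and Fn1 had 104445 and 83642. In coding transcripts alone Sparc had 1765 and 2112 TPM and Fn1 269 and 278 TPM. The Sparc coding sum still includes the short Sparc-206 (640 nt), at 977 and 1531 TPM, so it too rests on that assignment.

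**Figure D1:**
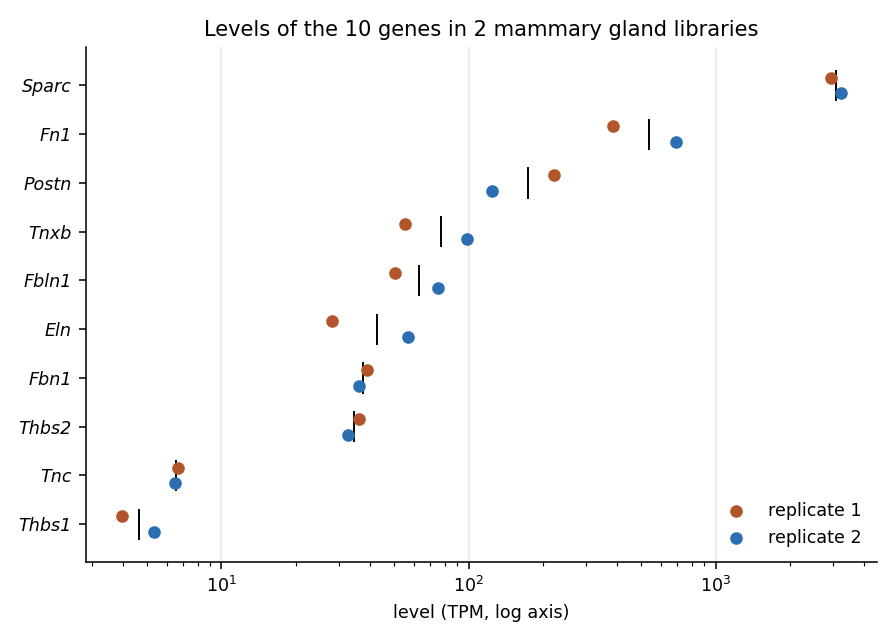
Level of each gene in TPM (log axis) in replicate 1 (upper point) and replicate 2 (lower point), with the mean as a vertical line. Sparc stands above all others near 3079 TPM, Tnxb, Fbln1, Eln, Fbn1 and Thbs2 lie between 28.0 and 98.7 TPM, and Tnc and Thbs1 are below 7 TPM.

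Fn1, the fibronectin gene (chr1:71585520-71653200, minus strand), was listed at 386 TPM in replicate 1 and 693 TPM in replicate 2 (539 ± 217, SD, n = 2). Its expected counts, 104445 in replicate 1 and 83642 in replicate 2, gave a log2 ratio of only -0.09 once scaled by total counts (95% counting interval -0.10 to -0.08), against -0.85 for TPM. TPM divides counts by the effective length, a mean over the gene's transcripts, which was 6279 nt in replicate 1 and 3926 nt in replicate 2, a ratio of 1.60. The larger of the effective lengths was more than 1.5 times the smaller in 897 of 14510 genes, 6.18%, and among the 10 genes in Fn1 alone. Summed over its 9 protein-coding transcripts, Fn1 stood at 269 TPM in replicate 1 and 278 TPM in replicate 2 (274 ± 6.15, SD, n = 2).

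Most of the extra Fn1 TPM in replicate 2 was assigned to 3 short transcripts annotated as targets of nonsense-mediated decay, the pathway that degrades RNAs with a premature stop codon. These summed to 5.19 TPM in replicate 1 and 301 TPM in replicate 2, while the 5 transcripts with a retained intron summed to 111 and 114 TPM. Fn1-209, of 816 nt in 6 exons, had 4.45 TPM in replicate 1 and 177 TPM in replicate 2, or 1.15% and 25.6% of the gene's TPM. Fn1-210, of 1190 nt in 10 exons, had 0.35 TPM in replicate 1 and 123 TPM in replicate 2. In fragments the decay class is small, at 135 in replicate 1 and 6983 in replicate 2, which is 0.13% and 8.35% of the gene's counts. Both short transcripts lie inside the span of the full-length ones, Fn1-209 from 50824 to 54840 nt and Fn1-210 from 52832 to 63103 nt past the gene's 5′ end. The assignment of reads to them rests on the quantifier's model.

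**Figure D2:**
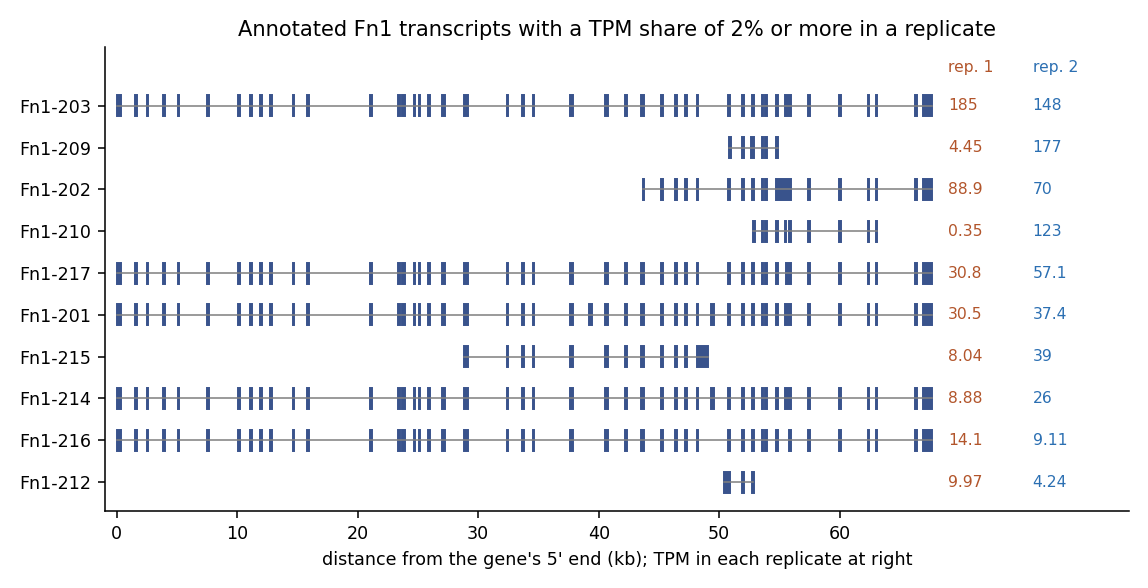
Exons (boxes) of the annotated Fn1 transcripts with a TPM share of at least 2% in either replicate, by distance in kb from the gene's 5′ end, with TPM in replicate 1 and then replicate 2 beside each. Fn1-209 and Fn1-210 cover a short stretch toward the 3′ end and have 4.45 and 0.35 TPM in replicate 1, against 177 and 123 TPM in replicate 2.

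The main full-length transcript was Fn1-203 (7797 nt), which lacks both extra domain exons and holds the longest form of the variable region. It had 185 TPM in replicate 1 and 148 TPM in replicate 2, a share of 47.8% and 21.4%. By expected counts its share was 57.8% in replicate 1 and 41.4% in replicate 2, the highest of the 17 transcripts in both. Fn1-202, an annotated retained-intron transcript of 4022 nt that covers the 3′ part of the gene, had 88.9 TPM in replicate 1 and 70.0 TPM in replicate 2 (23.1% and 10.1%), below Fn1-209 and Fn1-210 in replicate 2.

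The EIIIA exon was included in 11.2% of the TPM of spanning transcripts in replicate 1, against 18.2% in replicate 2, and EIIIB in 11.0% and 11.8%. Both extra domains were therefore mostly skipped in both libraries. The skipping side includes a retained-intron transcript, Fn1-202 for EIIIA and Fn1-215 for EIIIB, so these exons do not share a denominator. In the variable region, coding transcripts with the longest exon (467 nt, with the CS1 bases shown above) held 224 TPM in replicate 1 and 212 TPM in replicate 2, or 83.1% and 76.2%. The form without the 75 capital bases (392 nt) held 30.8 and 57.1 TPM, or 11.4% and 20.5%, and the form that is 360 nt shorter than the longest (107 nt) held 14.7 and 9.11 TPM, or 5.45% and 3.28%. Among coding transcripts the order of the 3 forms was the same in both replicates. Over all transcripts, Fn1-210 included, the 107-nt form took 33.0% of TPM in replicate 2 and the 392-nt form 14.2%, which turns their order round there. Fn1-210 held 123 of the 132.6 TPM of the 107-nt form in replicate 2. It also carries a separate 106-nt exon (chr1:71597642-71597747) that spans the 75 capital bases. That 33.0% is therefore not a share of transcripts without CS1.

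Sparc, which encodes osteonectin, a collagen-binding protein of basement membranes and remodelled stroma (chr11:55394500-55423183, minus strand), was the most abundant of the 10. It had 2934 TPM in replicate 1 and 3223 TPM in replicate 2 (3079 ± 204, SD, n = 2). Its expected counts were 110361 in replicate 1 and 73751 in replicate 2, a scaled log2 ratio of 0.17 (0.16 to 0.19), so counts put it higher in replicate 1 and TPM put it lower. It was the only one of the 10 whose 2 measures differed in sign, and its effective length was 872 nt in replicate 1 and 745 nt in replicate 2.

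Sparc RNA was split over 2 short and 2 long transcripts. Sparc-205, a 741-nt transcript with a retained intron from the 3′ part of the gene, had 1162 TPM in replicate 1 and 1109 TPM in replicate 2 (39.6% and 34.4%). Sparc-206, a 640-nt coding transcript that ends 23931 nt into the gene's 28684 nt, had 977 TPM in replicate 1 and 1531 TPM in replicate 2 (33.3% and 47.5%). The full-length Sparc-202 (2115 nt) had 692 and 271 TPM (23.6% and 8.40%), and the full-length Sparc-201 (2300 nt) had 95.6 and 310 TPM (3.26% and 9.62%). By expected counts Sparc-202 took 51.5% of the gene in replicate 1 and 21.4% in replicate 2, and Sparc-201 took 7.81% and 26.9%. Sparc-205 and Sparc-206 lie inside the span of the full-length transcripts, so the assignment of reads to them rests on the quantifier's model.

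The 3 forms of Sparc exon 3 shown above were compared among the 3 coding transcripts, where the 60-nt form (all 6 capital bases) took 10.3% of counts in replicate 1 and 35.7% in replicate 2, the 57-nt form 68.0% and 28.4%, and the 54-nt form 21.7% and 36.0%. By TPM, which weights the short Sparc-206 more, the 60-nt form took 5.42% in replicate 1 and 14.7% in replicate 2, the 57-nt form 39.2% and 12.8%, and the 54-nt form 55.4% and 72.5%. The leading form in replicate 1 was thus the 57-nt one by counts and the 54-nt one by TPM. Each form is carried by 1 annotated transcript, which also differs from the others in its ends, so these shares do not measure the 3′ splice sites alone.

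**Figure D3:**
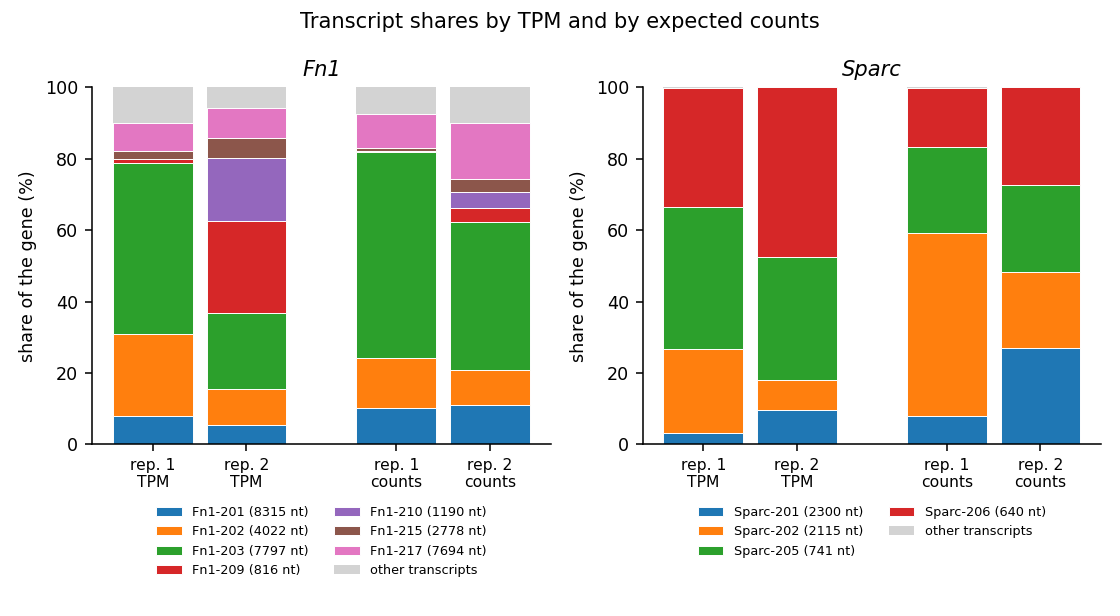
Share (%) of each Fn1 and Sparc transcript in the gene's TPM (left pair of bars) and expected counts (right pair of bars), replicate 1 left of replicate 2, for transcripts with at least 5% of TPM in a replicate and the rest in grey. Fn1-203 has 47.8% of TPM in replicate 1 and 21.4% in replicate 2, by counts it is the largest share in both, and Sparc-202 is 51.5% of counts in replicate 1 and 21.4% in replicate 2.

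Postn, which encodes periostin, a protein of connective tissue under tension and of healing wounds (chr3:54361109-54391037, plus strand), had 222 TPM in replicate 1 and 125 TPM in replicate 2 (173 ± 69.2, SD, n = 2). Its expected counts of 27929 in replicate 1 and 11204 in replicate 2 made it 1.88-fold higher in replicate 1 (log2 0.91, 0.88 to 0.94), the largest difference among the 10 in that direction. Of the 6 fibroblast markers, 4 were higher in replicate 1 by counts and 2 were lower, with a median log2 ratio of 0.55. Dcn, at 951 TPM in replicate 1 and 485 TPM in replicate 2 (log2 count ratio 1.06), and Lum, at 215 and 91.5 TPM (1.31), lay beyond 2-fold. The log2 count ratio was 0.91 for Pdgfra, 0.19 for Col3a1, -0.29 for Col1a2 and -0.42 for Col1a1. Their part in the result was not tested.

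Nearly all Postn RNA came from Postn-204, which lacks both exons shown above, at 87.4% of TPM in replicate 1 and 94.2% in replicate 2. Exon 17 was included in 6.34% of the TPM of the spanning transcripts used in replicate 1 and in 0% in replicate 2. Postn-203, at 0 TPM in replicate 1 and 2.06 TPM in replicate 2, was left out because its length differs in GENCODE M21. The 0% in replicate 2 therefore does not show that the exon was absent there. Exon 21 was included in 6.34% in replicate 1 and 0.99% in replicate 2. Both values in replicate 1 rest on 1 transcript, Postn-202, at 13.2 TPM.

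The tenascins form large hexamers or trimers that modulate cell adhesion. Tnxb, the tenascin of dermis and loose connective tissue (chr17:34670535-34719815, plus strand), was the higher, with 55.4 TPM in replicate 1 and 98.7 TPM in replicate 2 (77.0 ± 30.7, SD, n = 2). Its counts of 26542 and 34274 gave a log2 ratio of -0.78 (-0.80 to -0.76). Tnc, which is induced in remodelling stroma (chr4:63959785-64047015, minus strand), had 6.64 TPM in replicate 1 and 6.50 TPM in replicate 2 (6.57 ± 0.099, SD, n = 2). Its TPM was the most closely repeated of the 10. Its log2 count ratio of 0.10 was a little larger in size than that of Fn1, but its interval alone held 0 (-0.00 to 0.20). Tnxb was 8.34 times Tnc in TPM in replicate 1 and 15.2 times in replicate 2.

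Tnxb-201 (12209 nt), with 8 coding exons that Tnxb-202 lacks, held 68.9% of Tnxb TPM in replicate 1 and 75.3% in replicate 2. Tnxb-202 held the other 31.1% and 24.7%. In Tnc, Tnc-201 held 64.8% in replicate 1 and 51.7% in replicate 2 and Tnc-204 held 29.6% and 46.8%. The deposited credibility intervals of each of these Tnc transcripts, whose level is not stated, overlapped between replicates. The 273-nt exon 14 of Tnc-203, the only alternative coding exon between the long Tnc transcripts, was included in 5.57% of TPM in replicate 1 and 1.38% in replicate 2, so it was mostly skipped.

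The thrombospondins bind calcium, matrix and the receptors CD36 and CD47, and are known as inhibitors of vessel growth. Thbs2 (chr17:14665500-14694235, minus strand) had 36.2 TPM in replicate 1 and 32.4 TPM in replicate 2 (34.3 ± 2.67, SD, n = 2), with counts of 8911 and 5685 and a log2 ratio of 0.24 (0.19 to 0.29). Thbs1 (chr2:118111876-118127133, plus strand) had 3.94 TPM in replicate 1 and 5.31 TPM in replicate 2 (4.63 ± 0.97, SD, n = 2), with counts of 916 and 920 and a log2 ratio of -0.42 (-0.55 to -0.28). Thbs2 was 9.18 times Thbs1 in TPM in replicate 1 and 6.10 times in replicate 2, and the replicates of the 2 genes did not overlap. Thbs2, like Eln, has 1 transcript in the tables.

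Of the elastic fibre components, Fbln1, a fibulin that binds fibronectin and elastin (chr15:85205949-85286535, plus strand), had 50.6 TPM in replicate 1 and 75.6 TPM in replicate 2 (63.1 ± 17.6, SD, n = 2). Its counts of 4812 and 5260 gave a log2 ratio of -0.54 (-0.59 to -0.48). Its transcripts end differently at the 3′ side: Fbln1-202 held 89.7% of the gene in replicate 1, against 85.1% in replicate 2, and the longer Fbln1-201 held 10.3% and 14.9%.

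Fbn1, the fibrillin of microfibrils (chr2:125300594-125507993, minus strand), had 38.9 TPM in replicate 1 and 36.0 TPM in replicate 2 (37.5 ± 2.06, SD, n = 2), with a log2 count ratio of 0.18 (0.14 to 0.21). Fbn1-201 held 96.7% of it in replicate 1 and 87.7% in replicate 2. Fbn2, its paralogue of developing tissue, had 0.50 TPM in replicate 1 and 0.75 TPM in replicate 2, so Fbn1 was 77.9 and 48.0 times as high. An annotated antisense gene, Gm9913, shares 2442 nt with Fbn1 exons, and whether the counting used strand is not known.

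Eln, the elastin gene (chr5:134702593-134747323, minus strand), had 28.0 TPM in replicate 1 and 57.2 TPM in replicate 2 (42.6 ± 20.6, SD, n = 2), from 2864 and 4161 counts. Its transcript is 2583 nt long in the tables and 3853 nt in GENCODE M21, so its TPM is set per the shorter model. It was lower in replicate 1 by a log2 ratio of -0.95 (-1.02 to -0.88), the largest difference of the 10 in that direction. The order of Eln and Fbn1 turned over between libraries: the ratio of Fbn1 to Eln in TPM was 1.39 in replicate 1 and 0.63 in replicate 2.

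By mean TPM the order of the 10 was Sparc, Fn1, Postn, Tnxb, Fbln1, Eln, Fbn1, Thbs2, Tnc and Thbs1. Neighbours overlapped in their replicate ranges from Tnxb to Fbln1, Fbln1 to Eln, Eln to Fbn1 and Fbn1 to Thbs2, so these neighbours did not differ beyond the spread between replicates, although only Eln and Fbn1 changed order between the libraries. Both values of Tnxb and of Fbln1 lay above both values of Fbn1 and of Thbs2. The other neighbouring pairs were separate. The same order was found with posterior mean TPM and coding transcripts alone. FPKM gave it too, but FPKM is proportional to TPM within a library, so it is no separate check. The transcript with the highest TPM share was the same in both replicates for 6 of the 8 genes with more than 1 transcript, the exceptions being Fn1 and Sparc.

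Between replicates, a gene counted as beyond 2-fold when its count ratio, scaled by total counts, had a 95% interval (Clopper-Pearson, counting error only) wholly past that line. None of the 10 did (0 of 10), against 2635 of 14510 genes, or 18.2%, with 1369 higher in replicate 1 and 1266 in replicate 2. With DESeq2 size factors Eln lay beyond 2-fold (1 of 10, against 18.5% of all genes). With totals that leave out mitochondrial genes and the 6 skeletal muscle markers Postn did (1 of 10, against 19.7%). By counts 5 of the 10 were higher in replicate 1 and 5 were lower, with a median log2 ratio of 0.01 against 0.06 over all genes. By log2(TPM + 1) the median was -0.24 against -0.05 over all genes, with 4 higher and 6 lower in replicate 1.

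**Figure D4:**
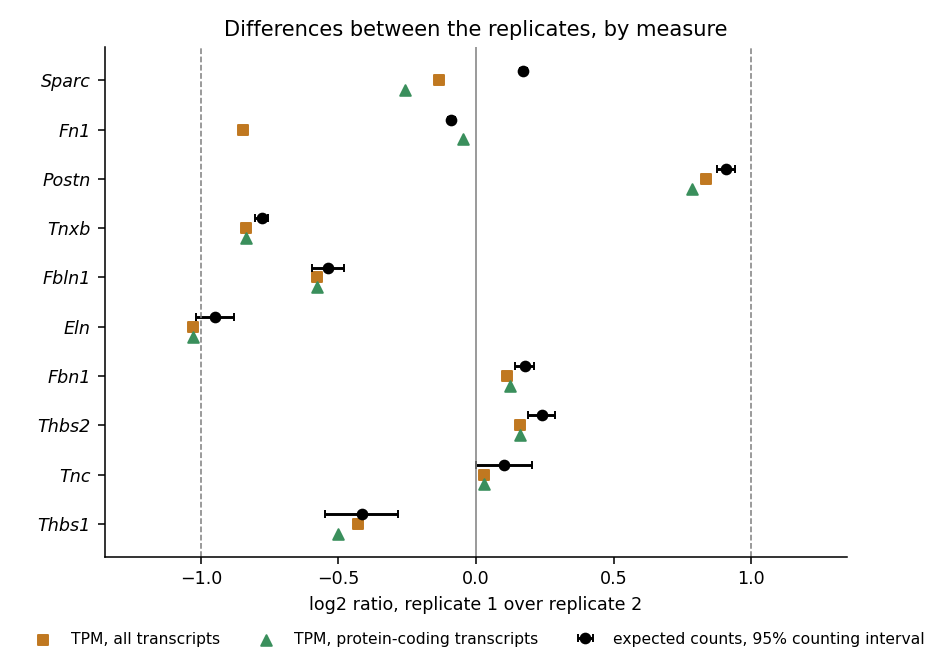
Log2 ratio of replicate 1 over replicate 2 for each gene by expected counts (circles, 95% counting interval), TPM (squares) and TPM of protein-coding transcripts (triangles), with dashed lines at 2-fold. Fn1 lies near 0 by counts and by coding transcripts but at -0.85 by TPM, and Sparc lies on opposite sides of 0 by counts and TPM. The coding value of Sparc includes the short Sparc-206.

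The difference between the replicates ran with GC content over all protein-coding genes. In 20 bins of the GC content of the longest transcript, the median of log2(TPM + 1), replicate 1 minus replicate 2, ran from 0.64 in the bin around 38.9% GC to -1.05 in the bin around 61.4%. Postn, at 36.3% GC, was the highest in replicate 1, and Tnxb (60.7%) and Eln (58.8%) were among the lowest. With the median at each GC content removed, and that of the lowest bin used for Postn, which lies below it, the difference was 0.19 for Postn, against 0.83 before, 0.14 for Tnxb, against -0.82, and -0.27 for Eln. Fn1 kept -0.66 of -0.84 and Thbs1 stood at -0.44, against -0.35 before.

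**Figure D5:**
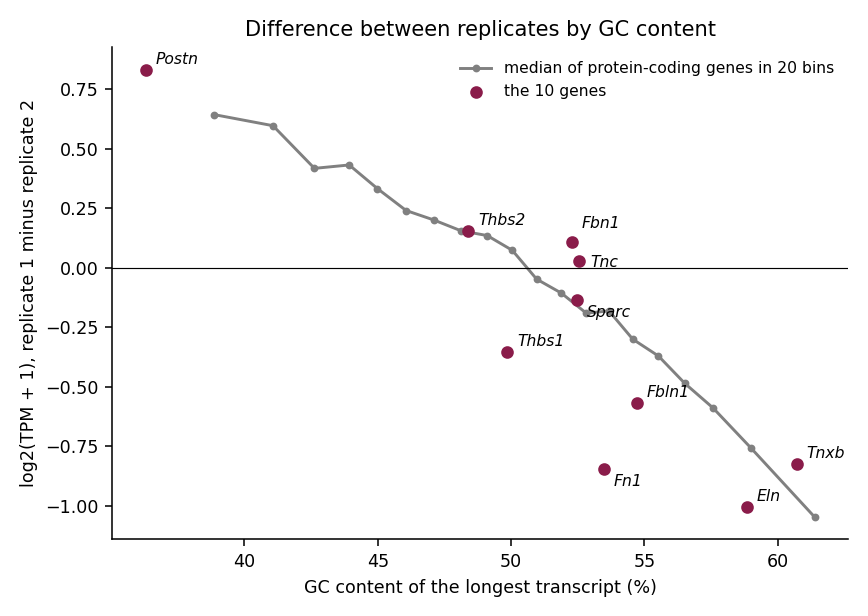
Difference in log2(TPM + 1), replicate 1 minus replicate 2, against the GC content (%) of the longest transcript, for the 10 genes (points) and the median of all protein-coding genes in 20 bins (grey line). Thbs2 and Sparc lie close to the line, and Fn1 is farthest from it, at -0.66 with the line subtracted.

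Among 19 other genes of elastic fibres and microfibrils, 18 had a mean of at least 1 TPM, and all 19 summed to 1474 TPM in replicate 1 and 1826 TPM in replicate 2. The most abundant were Mfap5, a microfibril glycoprotein, at 389 and 297 TPM, the crosslinking enzyme Loxl1 at 163 and 323 TPM, the latent TGF-beta binding protein Ltbp4 at 111 and 241 TPM, and Mfap2 at 128 and 182 TPM. By the same count rule, which called 18.2% of all genes, 1 of the 18 genes was beyond 2-fold higher in replicate 1 and 3 were lower. The higher was Mfap4, with 83.5 and 35.2 TPM (log2 1.37). Lower in replicate 1 were Ltbp4 (log2 -1.08), Emilin1, with 21.1 and 43.3 TPM (log2 -1.26), and the crosslinking enzyme Lox, with 22.4 and 51.4 TPM (log2 -1.10). The 18 genes had a median log2 count ratio of -0.20, against 0.06 over all genes.

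Of 19 other matricellular genes, 13 had a mean of at least 1 TPM, and all 19 summed to 382 TPM in replicate 1 and 404 TPM in replicate 2. The highest were Sparcl1, a relative of Sparc, at 85.8 and 56.0 TPM, Tgfbi at 72.5 and 67.1 TPM, Smoc1 at 53.6 and 68.9 TPM, and Thbs3 at 46.4 and 45.4 TPM. Of the 13, 1 was beyond 2-fold in each direction, against 18.2% of all genes in either. These were Thbs4, with 12.5 TPM in replicate 1 and 2.67 TPM in replicate 2 (log2 2.30), and Ccn2, connective tissue growth factor, with 28.5 and 61.1 TPM (log2 -1.21). The 13 genes had a median log2 count ratio of -0.06. Thbs4 is known from tendon and muscle. The 6 skeletal muscle markers were higher in replicate 1, as Thbs4 was, while the 4 tendon and cartilage markers summed to 2.79 TPM in replicate 1 and 7.51 TPM in replicate 2, with Scx beyond 2-fold lower in replicate 1 (log2 -1.60). Their part was not tested.

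All 13 receptor genes had a mean of at least 1 TPM and summed to 563 TPM in replicate 1 and 530 TPM in replicate 2, with a median log2 count ratio of 0.15. The highest were the thrombospondin receptor Cd36, also a fatty acid transporter of adipocytes and capillary endothelium, at 182 and 68.9 TPM, the Sparc scavenger receptor Stab1 at 102 and 122 TPM, the integrin subunit Itgb5 at 73.9 and 81.9 TPM, and Itgav at 17.0 and 105 TPM. The measures also parted for Itgav, with expected counts of 1748 and 2311. Of the 13 genes, 2 were beyond 2-fold, against 18.2% of all genes, and both were higher in replicate 1. They were Cd36 (log2 count ratio 1.49) and Itgb6, named after its values were seen. Itgb6 had 4.44 TPM in replicate 1 and 2.23 TPM in replicate 2, a log2 TPM ratio of 0.99. Its expected counts of 530 and 100 gave a scaled log2 ratio of 2.00, so its measures parted too.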

How the data were processed

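The gene and transcript tables hold expected counts, TPM and FPKM, posterior mean TPM and each transcript's percent of its gene's TPM, as deposited by the authors and named per the file headers. The assembly was mm10 with GENCODE M4, per the text notes beside the tables; neither aligner nor quantifier is given there or in the labels. The authors' expected counts, fractional as deposited, were rounded to whole numbers for intervals. Entries named by a bare number (26248, at 0 throughout) were left out, and 97 spike-in type entries, which held 1.55% and 0.92% of counts in replicates 1 and 2, stayed out of totals. Depth was 56323489 and 42400470 counts. Contig and junction files on another build were not used.

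The 10 genes and all other lists were chosen with earlier results of these data known. GENCODE M21, also on mm10, gave symbols, coordinates, exons and GC content, and it named 42462 of 43346 gene identifiers, and 44 of 48 transcripts of the 10 genes had the same length in it. Inclusion of an exon is the TPM of transcripts that contain it over that of transcripts that contain or skip it. Only transcripts of the same length in GENCODE M21 were used for inclusion and for the exon forms. The libraries are stranded per the labels, but whether strand was used in counting is not given in the sources used here. Exons of Eln, Fbn1, Fn1, Thbs1, Tnc and Tnxb overlap an antisense gene.

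Named were all 10 genes, their transcripts with a share of at least 10%, and from the other lists the 4 highest genes, up to 4 more that were beyond 2-fold and averaged 5 TPM or more, and genes at 3 fragments or fewer in both libraries. Cell type lists are given by their sums, with single markers only for Acan and beside Postn and Thbs4, where Pdgfra and Scx were named after their values were seen. Fbn2, the alternative exons and the lower-share transcripts that carry them were named for their relation to the 10 genes. A gene passed with a mean TPM of at least 1. Count ratios had 95% Clopper-Pearson intervals that cover counting error only, and differences in TPM used a pseudocount of 1. Alternatives were edgeR 4.0.16 TMM factors, DESeq2 1.42.0 size factors (R 4.3.3), other thresholds, filters and units, and each replicate left out. Restriction to protein-coding transcripts was added after the data were seen. The rule was tested on simulated data for 14510 genes, where 100% of 200 genes changed 8-fold were called and 0 unchanged ones were. The simulated counts held Poisson counting error only and no further spread between replicates, and 8-fold is well past the 2-fold line. This checks the calculation and not how the rule behaves between real replicates. Python 3.11.15 was used with scipy 1.17.1, numpy 2.4.6, matplotlib 3.10.9 and pandas 2.3.3.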

Additional observations from a re-analysis of the deposited data

How the results depend on the processing

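Of 25 alternatives for the 5 summary results, 17 stayed within tolerance and 8 moved the result. The tolerance was 1.5 times for a count, 0.1 for a median on the log2 scale and 1 SD for the summed level. Of 80 alternatives for single genes, 50 stayed within tolerance and 30 moved the value, the tolerance being 1 SD for a level and the counting interval for a ratio. Some outcomes within tolerance were fixed in advance. Leaving out 1 of 2 replicates always moves a mean by less than 1 SD. The filters on low values could not raise the number of the 10 genes beyond 2-fold. Coding transcripts alone could not move genes with no other expressed transcripts. Some outcomes outside tolerance were set by the method too. FPKM levels were held against TPM levels, which are in another unit. TMM and DESeq2 factors shift every ratio by the same amount, so the width of a gene's interval decides the outcome. The tallies therefore do not measure how stable the results are. The number of the 10 genes beyond 2-fold was 0 as reported, against 18.2% of all 14510 genes. It was 1 with DESeq2 size factors (Eln, lower in replicate 1), against 18.5% of all genes. With totals that leave out mitochondrial genes and the 6 skeletal muscle markers it was 1 (Postn, higher in replicate 1), against 19.7%. At a 1.5-fold threshold it was 3 (Postn, Tnxb and Eln), against 5775 of 14510 genes, or 39.8%. The mitochondrial genes and the 6 skeletal muscle markers took 13.0% of counts in replicate 1 and 2.18% in replicate 2. Over all genes, the split of calls higher and lower in replicate 1 was 1143 and 1509 with TMM factors, 1052 and 1627 with DESeq2 size factors and 1962 and 903 without those genes. The median log2 difference of the 10 was 0.0045 by scaled expected counts and 0.015 with the GC trend removed. Their summed level was 4639 TPM when rescaled without mitochondrial genes and the 6 skeletal muscle markers (4728 in replicate 1 and 4550 in replicate 2). It was 2642 TPM in coding transcripts alone, and 3762 to 4352 TPM with a replicate left out. DESeq2 size factors shifted every log2 count ratio by -0.13 and turned the sign of Tnc; TMM factors turned none. The dominant transcript was the same in both replicates for 6 of 8 genes by TPM (not Fn1 and Sparc) and for 7 by counts (not Sparc). The cause of these shifts was not tested. No paired analysis was possible because there is 1 group. Depth limits Thbs1 and Tnc most, with 916 and 1349 counts as their lowest values.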
